A study of Mus musculus with 2 samples.

Results

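The miRNA genes described here are Mir204, Mir211, Mir34b, Mir34c, Mir449a, Mir449b and Mir449c, which are known from the choroid plexus and from multiciliated cells. They were chosen by gene symbol, and all 7 are among the 2202 miRNA genes of the count tables. The small RNA came from cerebral cortex of mice of strain B6NCrl, with no allele or agent named. Free-text descriptions call them wild-type, female and controls, while the separate sex and age fields were not filled in. The data consist of 1 group of 2 libraries, which are numbered as biological replicates 1 and 2. Both point to a single donor entry. The labels do not say that different animals were used, so the spread between them may be technical, and each value set for them compares libraries and not conditions. No marker of how much choroid plexus or ventricular wall entered the dissection is given in the labels.

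The choroid plexus is the epithelial tissue of the brain ventricles that secretes cerebrospinal fluid, and the ventricle walls are lined by ependymal cells that carry many motile cilia. MiR-204 and miR-211 are known from this epithelium and from other secretory or pigmented epithelia. The miR-34 and miR-449 families share a seed, the stretch at bases 2 to 8 that pairs with target messenger RNAs, and are known for their joint role in the formation of motile cilia. Mir34a belongs to the same family, but it is expressed in many cell types, neurons included, and is not a marker of ciliated cells.

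The sequences of the 5p arms are shown first, because they define which members are variants of one another and whether reads of different loci can be told apart. They are RefSeq sequences (build GRCm38.p6), and bases 2 to 8 are in capitals. A mature sequence was matched for 6 of the 7 genes. The first pair comes from Mir204 and Mir211.
miR-204-5p: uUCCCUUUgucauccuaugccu
miR-211-5p: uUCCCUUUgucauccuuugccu
Both are 22 nt long and identical at 21 positions. Counted from 1 at the 5′ end, with the base of miR-204-5p first, the difference is A17U. Only a read that reaches base 17 separates these arms. A miR-204-5p read with an error at base 17 could match miR-211-5p. How many of the Mir211 counts given below are such reads was not tested.

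The remaining 5p arms show the seed that joins the Mir34 and Mir449 genes, with that of Mir34a for comparison.
miR-34b-5p: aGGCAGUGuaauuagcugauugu
miR-449a-5p: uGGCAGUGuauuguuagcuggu
miR-449c-5p: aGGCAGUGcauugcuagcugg
miR-34a-5p: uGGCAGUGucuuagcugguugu
MiR-34c-5p and the arms of Mir449b are named only. The Mir34c precursor, shown because it gives the seed of the most abundant ciliated-cell gene of the set, holds the same 7 bases (capitals) starting at base 14.
Mir34c precursor: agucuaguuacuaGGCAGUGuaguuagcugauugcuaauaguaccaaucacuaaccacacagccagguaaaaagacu
GGCAGUG was searched for on the transcribed strand only, and 17 of the 1005 precursors in the RefSeq table hold it (1.69%). Bases 2 to 8 of the arm were GGCAGUG in 4 genes of that table, which were Mir34a, Mir34b, Mir449a and Mir449c. The seed UCCCUUU of miR-204-5p was shared by miR-211-5p and by miR-7670-3p, whose gene Mir7670 had 0 counts in replicate 1 and 2 in replicate 2. MiR-449a-5p and miR-449c-5p are identical at 18 of 21 positions compared, and differ by U1A, U9C and U14C. No run of 18 nt of the arms matched for these 6 genes, miR-34c-3p alone for Mir34c, occurs in the precursor of another counted miRNA gene. Repeats elsewhere in the genome were not searched.

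The genes lie at 4 places in the genome (mm10, GENCODE M21, counted from 1). Mir204 lies on chromosome 19 (22750605 to 22750672, plus strand) in an intron of Trpm3, and Mir211 on chromosome 7 (64205806 to 64205911, plus strand) in an intron of Trpm1, both in the sense of their hosts, which encode cation channels of the TRPM family. Mir34b (51103562 to 51103645) and Mir34c (51103034 to 51103110) lie on the minus strand of chromosome 9, with 452 bp between them. Both fall in an intron of Btg4, which is transcribed from the opposite strand. The Mir449 genes lie within 1642 bp on the plus strand of chromosome 13, in an intron of Cdc20b, a gene of the multiciliated lineage. Their order is Mir449c (113035983 to 113036091), Mir449b (113037419 to 113037498) and Mir449a (113037534 to 113037624).

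Mir204 was the most abundant of the 7 genes. It had 3447 sense counts in replicate 1 and 12258 in replicate 2, which, relative to all miRNA gene counts scaled to CPM, is 778 CPM in replicate 1 (95% Wilson interval 753 to 805) and 1755 CPM in replicate 2 (1724 to 1786). Its mean was 1266 ± 691 CPM (SD, n = 2), and it ranked 108th of the 2202 genes in replicate 1 and 69th in replicate 2. The counting intervals of the 2 libraries were far apart, so the SD was set by the libraries and not by depth. In mean level Mir204 stood between Mir455 (1267 ± 299 CPM) and Mir93 (1262 ± 128 CPM, SD, n = 2), a member of the Mir106b cluster. Its relative Mir211 was rare, with 14 counts (3.16 CPM, 1.88 to 5.31) in replicate 1 and 67 counts (9.59 CPM, 7.55 to 12.2) in replicate 2.

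Mir34c was the leading gene of the ciliated-cell group. It had 1441 counts (325 CPM, 309 to 343) in replicate 1 and 4331 counts (620 CPM, 602 to 639) in replicate 2, a mean of 473 ± 208 CPM (SD, n = 2). Its neighbour Mir34b had 75 counts (16.9 CPM, 13.5 to 21.2) and 239 counts (34.2 CPM, 30.1 to 38.8). Both genes were higher in replicate 2, with counting intervals that did not meet.

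The Mir449 cluster was carried almost wholly by Mir449a. Mir449a had 220 counts (49.7 CPM, 43.5 to 56.7) in replicate 1 and 370 counts (53.0 CPM, 47.8 to 58.6) in replicate 2, a mean of 51.3 ± 2.33 CPM (SD, n = 2). Here the counting intervals overlapped. Mir449c had 7 counts in replicate 1 (1.58 CPM, 0.765 to 3.26) and 4 in replicate 2 (0.573 CPM, 0.223 to 1.47). Mir449b had 0 counts in both libraries, where 3 counts, the limit that a count of 0 allows, correspond to 0.677 CPM (replicate 1) or 0.429 CPM (replicate 2).

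The order by mean CPM was Mir204, Mir34c, Mir449a, Mir34b, Mir211, Mir449c and Mir449b, and it was the same in both libraries. The lowest library value of each gene lay above the highest value of the next, from 778 against 620 CPM for Mir204 and Mir34c down to 3.16 against 1.58 CPM for Mir211 and Mir449c. The last 2 steps were not resolved by counting error in each library. The intervals of Mir211 and Mir449c overlapped in replicate 1 (1.88 to 5.31 and 0.765 to 3.26 CPM), and that of Mir449c in replicate 2 reached below the limit of 0.429 CPM for Mir449b. The 7 genes together held 0.117% of the counts in replicate 1 (0.114 to 0.121) and 0.247% in replicate 2 (0.244 to 0.251). Reads that map to more than 1 locus enter none of these counts, and the tables do not say which arm a read came from.

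**Figure D1:**
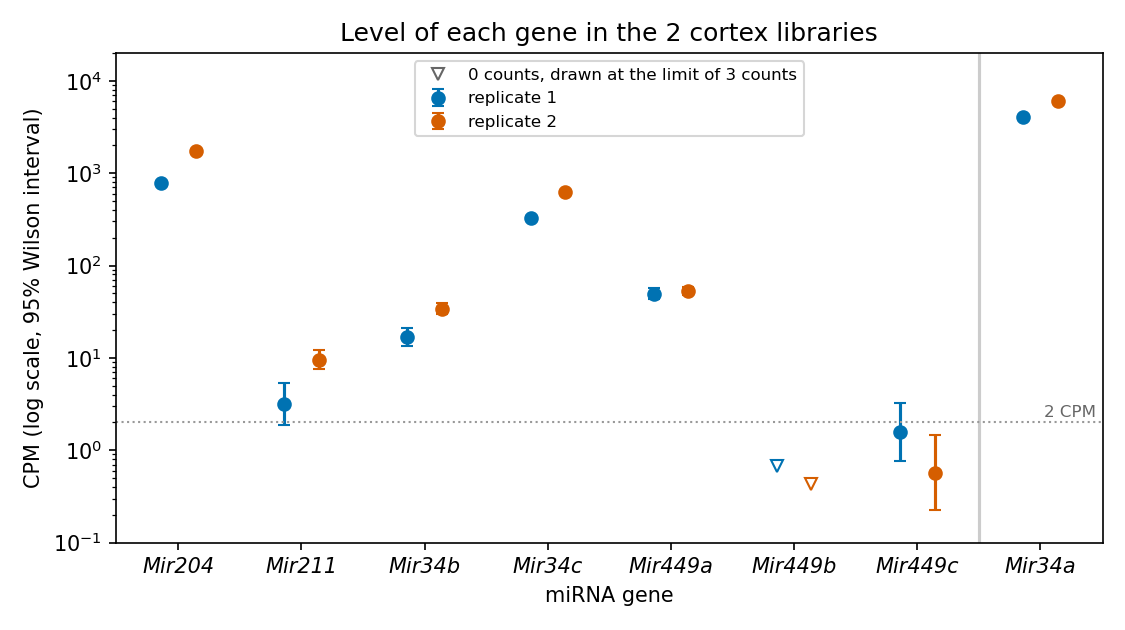
CPM (log axis) of the 7 genes and of Mir34a in each cortex library, with 95% Wilson intervals for counting error; open triangles mark 0 counts, drawn at the limit of 3 counts, and the dotted line is the 2 CPM minimum for testing. Mir204 (778 and 1755 CPM) and Mir34c (325 and 620 CPM) stand above the other members and are higher in replicate 2, while Mir449a sits at 49.7 and 53.0 CPM.

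Within the seed family, the ciliated-cell genes were a small part beside Mir34a. Mir34a (chromosome 4, 150068454 to 150068555) was counted 17824 times in replicate 1 (4024 CPM) and 42521 times in replicate 2 (6087 CPM). It made up 91.1% of the counts of the family (Mir34a, Mir34b, Mir34c, Mir449a and Mir449c) in replicate 1 (exact 95% interval 90.7 to 91.5) and 89.6% in replicate 2 (89.3 to 89.9). Mir34c held 7.36% (7.0 to 7.74) and 9.12% (8.87 to 9.39), and Mir449a 1.12% (0.981 to 1.28) and 0.780% (0.702 to 0.863). The share of Mir34c was thus higher in replicate 2 and that of Mir449a lower, each by more than counting error. These shares are of gene counts, so the 3p arms are in them.

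Shares within pairs of genes do not depend on how the libraries are scaled to each other. Mir34b made up 4.95% of the counts of Mir34b and Mir34c in replicate 1 (exact 95% interval 3.91 to 6.16) and 5.23% in replicate 2 (4.60 to 5.92). The odds ratio of replicate 2 over replicate 1 was 1.06 (0.809 to 1.40), so no difference was resolved. Mir34c counts exceeded those of Mir34b by 19.2 times in replicate 1 and 18.1 times in replicate 2, although the precursors lie 452 bp apart on the same strand. In the Mir204 and Mir211 pair, which lies on different chromosomes, Mir211 made up 0.405% (0.221 to 0.678) and 0.544% (0.422 to 0.690), with an odds ratio of 1.35 (0.748 to 2.60). Mir449c made up 3.08% (1.25 to 6.25) of the counts of Mir449a and Mir449c in replicate 1 and 1.07% (0.292 to 2.72) in replicate 2, with an odds ratio of 0.340 (0.0722 to 1.36), again with no difference resolved. The counts behind this last ratio are 7 and 4. Mir449b held 0 of the 220 and 370 counts of Mir449a and Mir449b. The exact 95% interval reached up to 1.66% in replicate 1 and 0.992% in replicate 2. The limit of 3 counts corresponds to 1.36% and 0.811%.

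The other shares between loci, unlike that of Mir211 with Mir204, differed between the libraries beyond counting error. The Mir449 cluster made up 13.0% of the summed counts of Mir449, Mir34b and Mir34c in replicate 1 (exact 95% interval 11.5 to 14.7) and 7.56% in replicate 2 (6.84 to 8.34), with an odds ratio of 0.547 (0.457 to 0.654). Both loci are attributed to multiciliated cells, but their ratio was not constant in these libraries. The shares were not adjusted for precursor GC content, which is 40.3% for Mir34c and 50.5% for Mir449a. Mir34b and Mir34c made up 30.5% (29.3 to 31.8) of their sum with Mir204 in replicate 1 and 27.2% (26.5 to 27.8) in replicate 2, with an odds ratio of 0.848 (0.791 to 0.909). That shift was smaller than the one between Mir449 and Mir34b with Mir34c, and it was also beyond counting error.

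**Figure D2:**
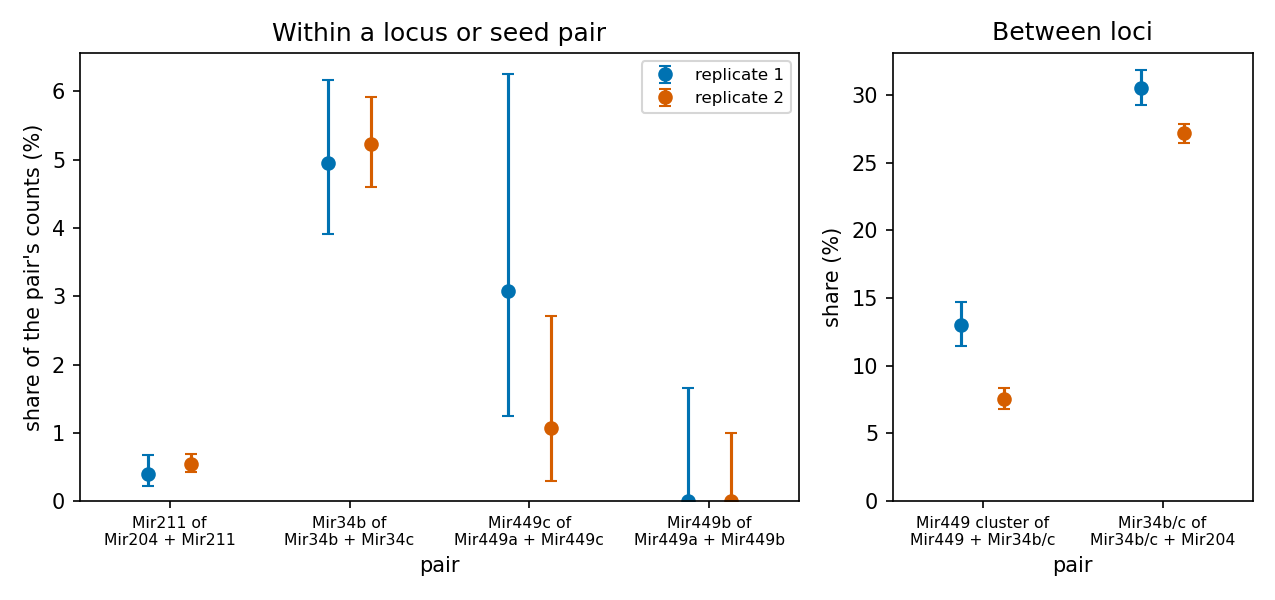
Share of the first-named gene or locus in the counts of each pair (percent), by library, with exact 95% intervals for counting error. The intervals overlap within the pairs on the left, such as Mir34b at 4.95% and 5.23%, whereas the Mir449 cluster falls from 13.0% to 7.56% of its sum with Mir34b and Mir34c.

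The counts of the 2 libraries were then compared gene by gene with the exact two-sided binomial test, after TMM scaling, a method that takes most genes as equal. Genes were tested at 2 CPM or more in both libraries and called where the Benjamini-Hochberg adjusted p was below 0.05 and the ratio reached 2 in either direction. Of the 7 genes, 5 passed the minimum, as Mir449c and Mir449b lay below it in both libraries. Mir204, Mir211, Mir34b and Mir34c, 4 of the 5, were called higher in replicate 2, where 9.36% of all 438 genes tested were called in that direction. Their count is higher than that background. The genes were brought together with this difference already known, so the count carries no weight of its own. In bulk tissue more cells of a type and more of the RNA per cell cannot be told apart.

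Mir211 had the largest log2 ratio of replicate 2 over replicate 1 among the 5, at 1.69 (exact 95% interval 0.88 to 2.67, adjusted p = 1.54e-05 by the exact binomial test), on 14 and 67 counts. Mir204, with far more counts, had a log2 ratio of 1.30 (1.24 to 1.35), a ratio of 2.46, and its adjusted p was at the smallest value written, 1e-300. Mir34b had a log2 ratio of 1.13 (0.76 to 1.53) and Mir34c one of 1.06 (0.97 to 1.14). The intervals of Mir211, Mir34b and Mir34c reached below 1, the log2 of the ratio limit of 2, and that of Mir204 lay wholly above it. Mir449a had a log2 ratio of 0.22 (-0.03 to 0.47) and was not called, with an adjusted p of 0.116 in the exact binomial test. The interval of Mir449a lay below those of Mir204, Mir211, Mir34b and Mir34c. The 5 genes had a median log2 ratio of 1.13, and all 438 genes tested had one of -0.03, with 90% of them between -1.21 and 1.21. Mir204 ranked 18th of the 438 toward replicate 2, Mir211 11th, Mir34b 29th, Mir34c 35th and Mir449a 158th.

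**Figure D3:**
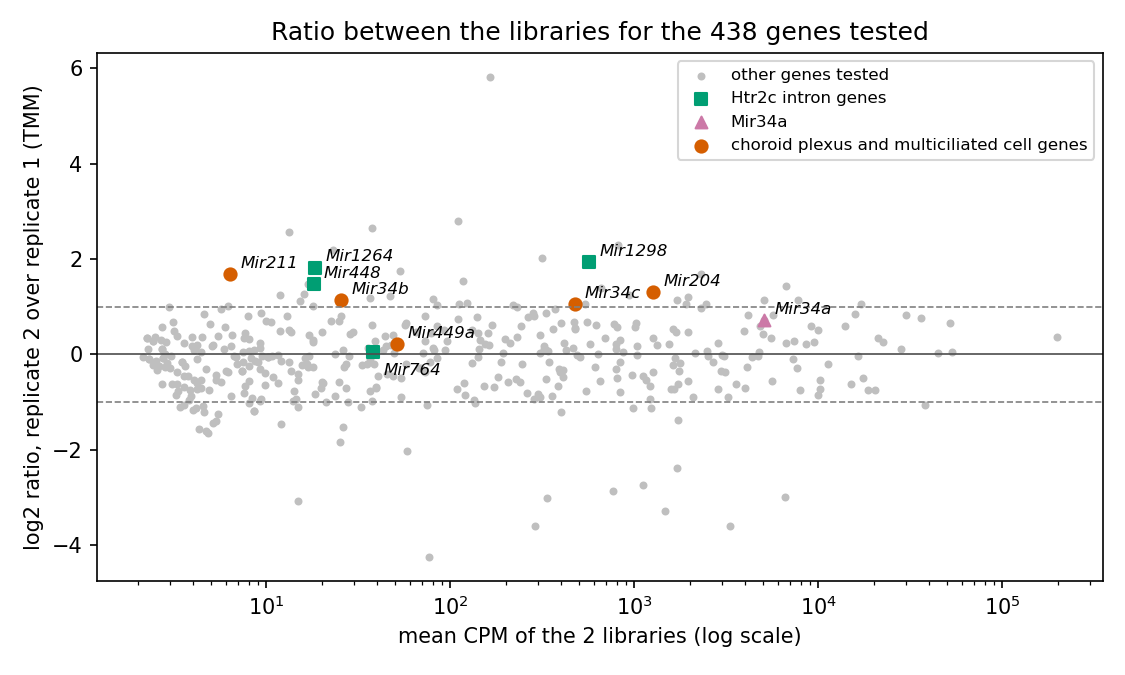
Log2 ratio of replicate 2 over replicate 1 after TMM scaling against mean CPM (log axis) for the 438 genes tested; dashed lines mark a ratio of 2 in either direction. Mir204, Mir211, Mir34b and Mir34c lie above the upper line and Mir449a lies near 0, at 0.22.

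The calls of Mir34b and Mir34c depended on settings. With the trend of the ratio on precursor GC content removed, Mir34b had a log2 ratio of 0.95 and Mir34c of 0.63, below the ratio limit, and with library totals in place of TMM, which put the median of all genes tested at -0.16, Mir34c had 0.93. With library totals the calls over all genes were 29 toward replicate 2 and 55 toward replicate 1, against 41 and 38 with TMM. Mir34c has the lowest precursor GC content of the 7 genes, 40.3%, against 48.5% for Mir204, 50.5% for Mir449a and 57.5% for Mir211. The labels cite a different adapter trimming document for each library, so trimming and replicate cannot be told apart. Mir204 and Mir211 were called under each of the 6 alternatives to the ratio, with log2 ratios of 1.15 to 1.40 and of 1.56 to 1.88. Mir449a stayed between 0.09 and 0.32. With the GC trend removed it had 0.15, beside 0.63 for Mir34c, so these 2 genes lay closer together than after TMM scaling alone.

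**Figure D4:**
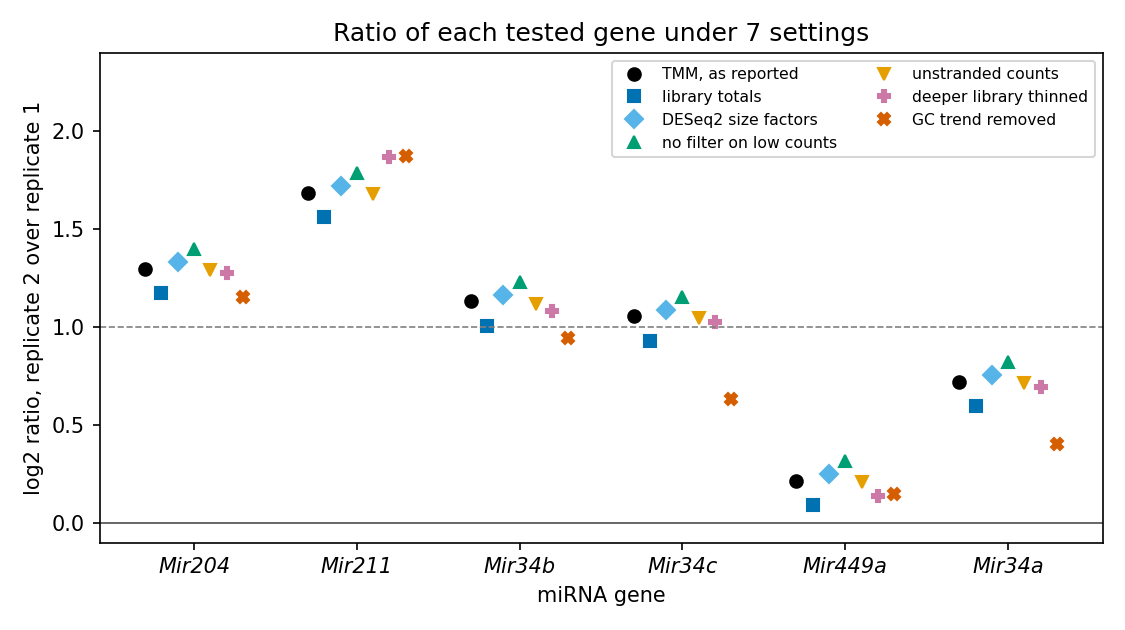
Log2 ratio of replicate 2 over replicate 1 for the 5 tested members and Mir34a under TMM and 6 alternatives; the dashed line is a ratio of 2. Mir204 and Mir211 stay above the line, Mir34c falls to 0.63 with the GC trend removed, and Mir449a stays at 0.32 or below.

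Mir34a, the seed relative outside the ciliated-cell group, had a log2 ratio of 0.72 (0.70 to 0.75), short of a ratio of 2 and between the values of Mir449a and Mir34c. Among genes whose mean reached 100 CPM, the 3 with the ratio nearest to that of Mir204 were Mir379 (1.24), Mirlet7f-2 (1.38) and Mir31 (1.21). Those nearest to Mir34c were Mir3068 (1.06), Mir411 (1.05) and Mir22 (1.05). This likeness was searched over 198 genes and rests on 2 libraries only. It shows that genes outside the set had ratios within 0.1 of theirs on the log2 scale.

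The miRNA genes in introns of Htr2c were examined beside the members, because the choroid plexus is known for strong expression of this serotonin receptor, which neurons also express. Of the 5 genes, 4 were tested and 3 were called higher in replicate 2, against the 9.36% of all genes tested. This list, like the members, was chosen with earlier results of these data known, so the count carries no weight of its own. Mir1298 had 1111 counts (251 CPM) in replicate 1 and 6143 (879 CPM) in replicate 2, a log2 ratio of 1.93 (1.84 to 2.03). Mir1264 had 38 and 196 counts, with a log2 ratio of 1.82, and Mir448 had 45 and 181, with 1.46. Mir764, in the same host, had 173 and 258 counts and a log2 ratio of 0.04 (-0.24 to 0.33). That value was -0.082 with library totals, -0.041 with the deeper library thinned and -0.20 with the GC trend removed. Mir1912 had 0 and 5 counts and was not tested. A further counted miRNA gene, Gm22650, lies 2750 bp from Mir764 on the same strand and was not in this list. It had 77 and 96 counts and a log2 ratio of -0.22 (-0.66 to 0.24), and was not called. The 5 listed genes summed to 309 CPM in replicate 1 and to 971 CPM in replicate 2, against 781 and 1764 CPM for Mir204 with Mir211.

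Markers of other cell types were compared in the same libraries. These lists too were chosen with earlier results of these data known, so their counts of calls carry no weight of their own. The epithelial list, which holds the Mir200 family with Mir203 and Mir205, summed to 12838 CPM in replicate 1 and 2060 CPM in replicate 2, and replicate 1 was called higher for 6 of its 7 genes, where 8.68% of all 438 genes tested were called in that direction. The Mir183 cluster of sensory epithelia summed to 14691 and 1625 CPM, with 3 of 3 genes called higher in replicate 1. These called genes went against Mir204 and Mir34c. Mir203 lay toward replicate 2 like Mir204 and Mir34c, with 46.7 and 68.0 CPM and a log2 ratio of 0.66, and was not called. No gene of either list was at 0. Mir184, a gene of lens and pigment epithelium, which also express Mir204, had 70.2 and 87.6 CPM and was not called. Of the neuron list, 6 of 6 genes were tested and 0 were called in either direction, with summed levels of 65726 and 84859 CPM and Mir132 and Mir598 highest. The oligodendrocyte (7099 and 7841 CPM), vessel (4286 and 5428 CPM) and blood and leukocyte lists (862 and 1236 CPM) had 0 calls too, with 2 of 2, 3 of 3 and 4 of 6 genes tested. In the vessel list the endothelial gene Mir126a fell just short of a call, with 1641 and 2948 CPM and a log2 ratio of 0.97, toward replicate 2 like the members. It was called with DESeq2 size factors (1.00) and with no filter on low counts (1.07). Mir143 (0.02) and Mir145a (0.08) were near 0. At an adjusted p under 0.05 alone, 5 of the neuron genes, 1 of the oligodendrocyte, 1 of the vessel and 1 of the blood and leukocyte genes passed the exact binomial test, as did 63.9% of all genes tested. In the blood list, Mir144 had 3 counts in replicate 1 and 0 in replicate 2, and Mir451a had 8 and 75. The part of any of these cell types in the ratios of Mir204, Mir211, Mir34b and Mir34c was not tested.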

How the data were processed

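The authors deposited 1 table of raw read counts per library, with a line per annotated miRNA gene and columns for either strand and for each strand. Per the labels, reads come from RNA of under 30 nt and the build is mm10; the deposited readme text adds GENCODE M21. The aligner is not given in the sources used here, nor is the counter. Summary lines that name no gene were left out of library sizes. Replicate 1 held 12506469 reads and replicate 2 held 18276311, of which 43.9% and 47.9% were placed at several loci and 17.0% and 11.1% were unmapped. Sense counts in genes came to 4429633 and 6985784. All 2202 identifiers matched GENCODE M21.

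Sense counts, taken as the stranded column of larger total, were scaled to CPM of all gene lines. They were not divided by length, because a read is a whole small RNA. The 438 genes at 2 CPM or more in both libraries were compared by an exact binomial test (scipy 1.17.1) given TMM-scaled totals (edgeR 4.0.16), adjusted over all 438. Ratios have 0.5 counts added. Intervals and limits cover counting error only. On simulated counts for these genes the test recovered, at an adjusted p under 0.05, 188 of 200 genes changed 2 times and 200 of 200 changed 4 times. Of 238 unchanged genes, 5 and 12 passed, and 0 and 5 were also called with the ratio limit of 2. The simulated counts varied by counting error only and were given the true library totals. TMM scaling and variation between libraries were therefore not tested by them.

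The alternatives were library totals, DESeq2 1.42.0 size factors, no filter, unstranded counts, the deeper library thinned, the GC trend removed (lowess, statsmodels 0.14.6), a ratio limit of 1.5, other denominators, and each library alone. The named genes were the 7 members, Mir34a and other genes with a member's seed, the Htr2c intron genes, marker lists by counts with up to 2 leading examples, the 3 genes nearest in ratio to Mir204 and Mir34c, and the neighbours of Mir204 in level. Outside this rule, Mir144, Mir451a and Gm22650 were given after their values were seen. The members and lists were chosen with earlier results of these data known.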

Additional observations from a re-analysis of the deposited data

Results flagged for a closer look

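Reads on the opposite strand were seen at 1 member only. Mir34b had 5 opposite-strand counts in replicate 2 beside 239 sense counts, and 2 beside 75 in replicate 1. Over all genes, opposite-strand counts came to 217674 beside 4429633 sense counts in replicate 1. In replicate 2 they came to 393345 beside 6985784. Either-strand counts over all genes were lower than sense counts alone, at 4212255 in replicate 1 and 6592865 in replicate 2. The opposite-strand totals can hold reads of genes that overlap another counted gene on the other strand. They therefore give no background rate for Mir34b. Mir34c, Mir204, Mir211, Mir449a, Mir449b and Mir449c had 0 opposite-strand counts in both libraries. The strand opposite to Mir34b is that of Btg4, whose intron holds Mir34b and Mir34c. There are no control samples for these few counts, and their source was not tested.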

How the results depend on the processing

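The number of the 7 genes called higher in replicate 2 was 4, and it was 2 with the GC trend removed, which leaves Mir204 and Mir211. It was 3 with library totals, without Mir34c, and 4 under the other 5 alternatives. Of all 438 genes, 41 were called toward replicate 2 and 38 toward replicate 1 as reported, 29 and 55 under scaling by library totals, 27 and 29 after removal of the GC trend, and 80 and 91 at a ratio limit of 1.5. Mir764 turned to -0.082 with library totals, -0.041 with the deeper library thinned and -0.20 with the GC trend removed. The summed share of the 7 genes, 0.182% ± 0.0917 (SD, n = 2), ran from 0.117% to 0.247% with each library alone. The mean CPM of Mir449a moved by more than its small SD to 54.2 with unstranded counts, 47.2 over uniquely placed reads and 64.0 without the most abundant gene. No paired analysis was possible because there is 1 group. Depth limits Mir211, Mir449b and Mir449c.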
